A study of Homo sapiens with 12 samples.

Results

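NKG2D ligands are the cell-surface proteins through which a stressed, infected or transformed cell is seen by NKG2D, an activating receptor of natural killer (NK) cells and of cytotoxic T cells. The 7 genes described here, *MICA*, *MICB*, *ULBP1*, *ULBP2*, *ULBP3*, *RAET1G* and *RAET1L*, were chosen by symbol among the 45416 genes of the deposited RNA-seq table, and all 7 were in it. They were measured in U251, an established human glioblastoma cell line, in 12 libraries. Every library came from cells transfected for 48 h, either with a non-targeting siRNA control (siNC) or with 1 of 2 different siRNAs against *PD-L1* (siPDL1-1 and siPDL1-2). For each siRNA, 2 libraries came from unstimulated cells and 2 from cells given IFNγ at 100 U/ml for 24 h. Per the study's methods, IFNγ was given after the 48 h. The methods do not say when unstimulated cells were harvested, so the time since transfection may differ between unstimulated and stimulated cells. The controls were therefore transfected too, there were no untransfected cells, and no immune cells were added to these cultures.

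The ligands resemble MHC class I molecules but present no peptide. MICA and MICB are transmembrane proteins encoded in the MHC class I region, whereas the ULBP (RAET1) proteins are encoded in a separate cluster on the other arm of the same chromosome, and several of them are held in the membrane by a lipid anchor. In healthy tissue most of the ligands are scarce, and DNA damage, heat shock and viral infection are known to raise some of them. Tumor cells, glioblastoma cells included, carry several ligands and can also shed them through proteases, which lowers recognition by NK cells. The data described here are mRNA levels, so neither surface protein nor shed protein was measured.

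The coordinates in the deposited table are those of GRCh38 and were identical to the gene spans of GENCODE release 44 for all 7 genes. *MICA* (ENSG00000204520) occupies bases 31399784 to 31415315 of chromosome 6 (plus strand), and *MICB* (ENSG00000204516) bases 31494881 to 31511124 (plus strand), 79565 bases further on. The other 5 genes lie within 152244 bases of the long arm. These are *RAET1G* (ENSG00000203722, minus strand, 149916878 to 149923121), *ULBP2* (ENSG00000131015, plus strand, 149942014 to 149949235) and *ULBP1* (ENSG00000111981, plus strand, 149963943 to 149973715). *RAET1L* (ENSG00000155918, minus strand, 150018334 to 150025532) and *ULBP3* (ENSG00000131019, minus strand, 150061053 to 150069121) complete the cluster. All 7 are annotated as protein coding.

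*MICA* and *MICB* had log2 fold changes of opposite sign after IFNγ, with values given further on, and their upstream sequences are close relatives. In RefSeq (GRCh38.p14), an aligned 250-base window before the RefSeq start of each gene held 210 identical positions of 254, an identity of 82.7%, whereas the other pairs of members had identities between 39.5% and 54.5%. The 30 bases of each window that hold its first motif matches are shown because they are nearly the same in these differing genes, with 27 of 30 bases identical. The capitals mark a match to a heat shock element (GAANNTTC) followed by a match to a GC box (GGGCGG, here on the minus strand).

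*MICA*, chr6:31403460-31403489, plus strand: GAATTTTCtcttccaagcgtggccCCGCCC

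*MICB*, chr6:31498006-31498035, plus strand: GAATTTTCtcttctgaacgtggccCCGCCC

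The first base of the heat shock element match stood 135 bases before the RefSeq start of *MICA* and 139 bases before that of *MICB*. In GENCODE, other transcripts of *MICA* begin further upstream, so the printed *MICA* bases lie inside the first exon of some of them. The deposited span of *MICB* also begins upstream of its RefSeq start, at base 31494881, so the *MICB* window lies inside that span too, and the printed *MICB* bases lie in no annotated exon of *MICB*. Both strands were searched for 9 motifs, and the heat shock element was found in no other member, while 5.78% of all 35116 RefSeq promoter windows of the same length held it. The GC box, held by 42.6% of windows, was found in all members except *RAET1L*, and 6 copies stood before *ULBP3*. A CCAAT box (CCAAT, in 32.0% of windows) stood before *MICA*, where there were 2 copies, and before *MICB*, *ULBP2* and *RAET1G*, and the AP-1 motif (TGANTCA, in 6.57% of windows) was found only in the *RAET1L* window. Neither the GAS motif (TTCNNNGAA, in 6.57% of windows) nor the ISRE motif (in 3.02% of windows), the elements through which interferon signaling is known to act, was matched in the window of any member. A match is a match of letters only, and a missing match says only that these letters are not in this window.

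The libraries held between 17101069 and 55657393 reads on genes, and 1 read was worth between 0.0187 and 0.0586 of the deposited normalized CPM, the counts scaled to a common library size. *PD-L1* (*CD274*), the gene targeted by the siRNAs, was at 4.76 ± 0.217 CPM (SD, n = 2) in unstimulated siNC cells and at 2.70 ± 0.0436 and 3.51 ± 0.0860 CPM with siPDL1-1 and siPDL1-2. After IFNγ it was at 73.6 ± 3.43 CPM with siNC, 63.8 ± 4.04 with siPDL1-1 and 36.3 ± 1.76 with siPDL1-2, so that the reduction was smallest with siPDL1-1 in stimulated cells. Of the markers expected in a glioblastoma line, *VIM*, *NES*, *CD44*, *EGFR* and *SOX2* were above 108 CPM in every library, *GFAP* was between 1.92 and 7.25 CPM, *S100B* was between 2.40 and 5.92 CPM, and *OLIG2* did not exceed 0.359 CPM. The 9 leukocyte markers summed to between 0.392 and 1.204 CPM over the libraries, with *CD2* at 0 in all 12. The receptor itself, *KLRK1*, and its adaptors *HCST* and *TYROBP* together did not exceed 0.503 CPM, and none of the 3 passed the filter on low counts.

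**Figure D1:**
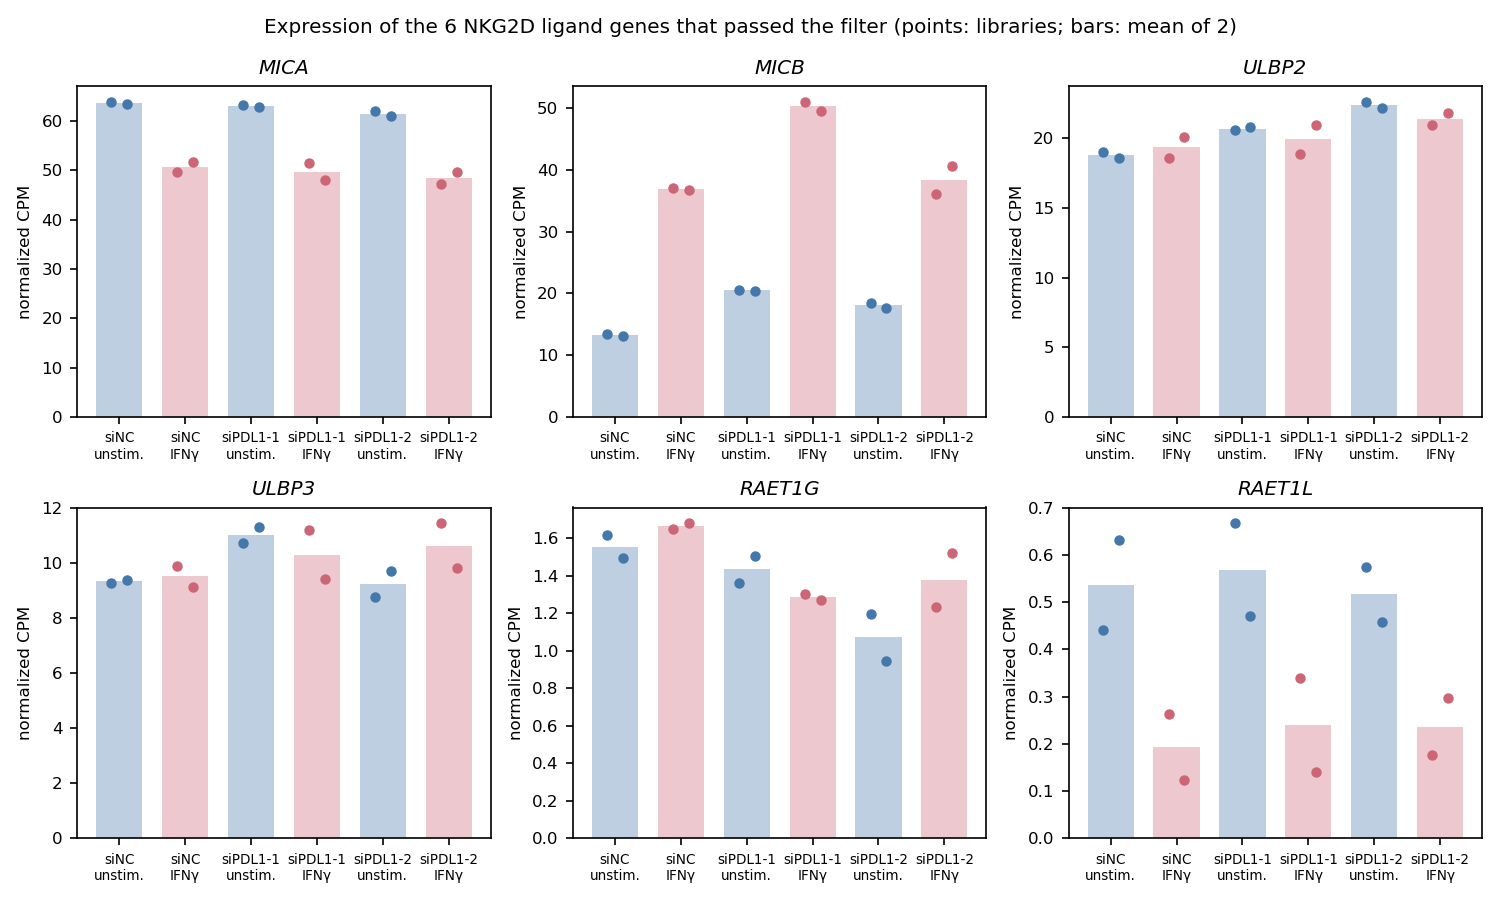
Normalized CPM of the 6 NKG2D ligand genes that passed the filter on low counts, in 6 groups of U251 libraries (x axis: siRNA and stimulation; y axis: normalized CPM, from 0, with its own scale for each gene). Points are libraries and bars are the mean of 2. *MICB* was higher and *MICA* lower after IFNγ with each siRNA, and *ULBP2* lay between 18.6 and 22.6 CPM throughout.

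The plot of CPM by group gives the level of each ligand in every library. Differences were tested with limma on log2(CPM + 1), with all 12 libraries fitted as 6 groups and p-values adjusted over the 17982 genes that passed the filter (Benjamini-Hochberg, written as FDR). Of the 7 members, 6 passed the filter and *ULBP1* did not. A gene is said to be called when its FDR was below 0.01 and its fold change above 1.5, and adding 1 to the CPM makes the fold change of a gene near or below 1 CPM smaller. The p-values rest on the spread between the 2 libraries of a group, pooled over all 6 groups and not taken from the compared groups alone. In limma this spread is also drawn toward a trend over all genes tested, so other genes contribute to it. The groups differed in spread, with an SD of *MICB* of 0.237 CPM in stimulated siNC cells and 3.14 in stimulated siPDL1-2 cells. Per the study's methods the 2 libraries came from separate experiments, and the sample labels only number them. In bulk cultures, fewer cells expressing a gene and less RNA per cell cannot be told apart.

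U251 cells expressed the ligands at very unequal levels. Levels of different genes were compared per kilobase of the canonical GENCODE transcript. In unstimulated siNC cells, *MICA* stood at 46.3 and 46.7 CPM per kb, *ULBP2* at 13.9 and 14.2, *MICB* at 5.39 and 5.53, and *ULBP3* at 2.97 and 3.02. *RAET1G* followed with 1.30 and 1.41 CPM per kb and *RAET1L* with 0.327 and 0.470, and no reads were counted on *ULBP1*. Neighbors in this order did not overlap between their libraries. *MICA* made up 65.7% ± 0.134 (SD, n = 2) of the summed ligand level per kb in these cells, *ULBP2* 19.9% ± 0.176 and *MICB* 7.72% ± 0.0837. *ULBP3* made up 4.23%, *RAET1G* 1.91% and *RAET1L* 0.564% as means of both libraries.

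*ULBP1* was close to undetected. It had 9 reads over the 12 libraries, in 4 of them, with at most 4 reads in a library, and none in either siPDL1-2 group or in unstimulated siNC cells. A count of 0 allows up to 3 reads in a library, which corresponds to between 0.0562 and 0.176 CPM depending on depth and covers counting error only. No fold change is given for *ULBP1*. *RAET1E*, a further gene of the cluster outside the 7, was also low, between 0 and 0.356 CPM.

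The first comparison asks which ligands responded to IFNγ, the cytokine that T and NK cells release near a tumor. *MICB* was at 13.4 and 13.0 CPM in unstimulated siNC cells and at 37.0 and 36.7 CPM after IFNγ. With siPDL1-1 the values were 20.6 and 20.4 CPM without and 51.1 and 49.6 CPM with IFNγ, and with siPDL1-2 they were 18.4 and 17.7 CPM without and 36.2 and 40.6 CPM with IFNγ. All 6 stimulated libraries were above all 6 unstimulated ones.

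*MICB* was called higher after IFNγ with each siRNA. Its log2 fold change was 1.41 in siNC cells (standard error 0.064, FDR = 1.35e-10 from limma), 1.26 in siPDL1-1 cells (FDR = 5.20e-10) and 1.05 in siPDL1-2 cells (FDR = 7.48e-09). In siNC cells the mean CPM after IFNγ was 2.79 times that before. *MICB* was the 1 member of 6 called in each of these comparisons, beside 8.12% of all genes tested in siNC cells, 6.87% with siPDL1-1 and 5.27% with siPDL1-2. For calls of higher expression alone, the shares over all genes were 6.67%, 5.58% and 3.62%.

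*MICA* went the other way by a smaller amount. It was at 63.9 and 63.5 CPM in unstimulated siNC cells and at 49.7 and 51.8 CPM after IFNγ. With siPDL1-1 the values were 63.3 and 62.9 CPM without and 51.5 and 48.0 CPM with IFNγ, and with siPDL1-2 they were 62.1 and 61.0 CPM without and 47.3 and 49.6 CPM with IFNγ. Every stimulated library was below every unstimulated one, as for *MICB* in the opposite direction.

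The log2 fold change of *MICA* was -0.32 in siNC cells (standard error 0.052, FDR = 1.53e-04 from limma), -0.34 in siPDL1-1 cells (FDR = 1.19e-04) and -0.34 in siPDL1-2 cells (FDR = 1.76e-04). The mean CPM of stimulated siNC cells was 0.796 times that of unstimulated ones. With each siRNA, *MICA* was past the FDR threshold and below the fold change threshold, so it was not called. Lower values past the FDR alone were found for 9.34% of all genes in siNC cells, 8.49% with siPDL1-1 and 7.56% with siPDL1-2. The effect on *MICA* was not shown to differ between the siRNAs, with interaction terms of -0.02 for siPDL1-1 (95% interval -0.17 to 0.14) and -0.02 for siPDL1-2 (-0.17 to 0.14).

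*RAET1L* was lower after IFNγ at very low counts. Its values were 0.441 and 0.633 CPM in unstimulated siNC cells and 0.262 and 0.125 CPM after IFNγ. Over the 3 siRNAs, the 6 unstimulated libraries lay between 0.441 and 0.667 CPM and the 6 stimulated ones between 0.125 and 0.340 CPM, without overlap, although a library held only between 3 and 25 reads. The log2 fold change was -0.36 in siNC cells (95% interval -0.64 to -0.09, FDR = 0.0353 from limma), -0.34 in siPDL1-1 cells (FDR = 0.0531) and -0.29 in siPDL1-2 cells (FDR = 0.0998), and none of these passed the threshold. Without the added 1, the mean CPM after IFNγ was 0.360, 0.423 and 0.458 times that before with siNC, siPDL1-1 and siPDL1-2.

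A test of IFNγ averaged over the 3 siRNAs was added after seeing these values. In it, *RAET1L* stood at -0.33 on the log2 scale (limma, FDR = 0.00175, standard error 0.074), past the FDR threshold, as were 14.7% of all genes in that direction, and below the fold change threshold. Adding 1 shrinks the fold change of *RAET1L*, so it cannot be set beside those of *MICA* and *MICB*, and that threshold was hard to reach. With a pseudocount of 0.1 the value of *RAET1L* was -1.02 (FDR = 0.00225) and under the quasi-likelihood test of edgeR, run on whole reads, it was -1.21 (FDR = 0.00275), and both were calls. DESeq2 gave -1.25 with an FDR of 0.0150, which was not. In the averaged test *MICA* stood at -0.33 (FDR = 2.29e-07) and *MICB* at 1.24 (FDR = 2.89e-13), and *MICB* was again the only member called, beside 4.85% of all genes. Of the 100-base windows of the *RAET1L* transcript, 11.8% also occur in *ULBP2*, and 11.9% of those of *ULBP2* occur in *RAET1L*. Reads that fit up to 10 places were kept in the counting, so the low values of *RAET1L* are uncertain. The canonical transcripts of *MICA* and *MICB* shared no such window with any other gene of the chromosome. Only exact windows were compared, whereas the authors' mapping allowed mismatches, so reads that fit more than 1 gene are not excluded for *MICA* and *MICB*.

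*ULBP2*, *ULBP3* and *RAET1G* showed no change with IFNγ that passed a threshold. *ULBP2* was at 19.0 and 18.6 CPM in unstimulated siNC cells and at 18.6 and 20.1 CPM after IFNγ. The log2 fold change of 0.04 had a 95% interval from -0.11 to 0.19, which leaves out changes as large as that of *MICA*. *ULBP3* was at 9.25 and 9.39 CPM before and at 9.13 and 9.89 CPM after IFNγ, with a log2 fold change of 0.03 (95% interval -0.19 to 0.24). *RAET1G* was at 1.62 and 1.49 CPM before and at 1.68 and 1.65 CPM after IFNγ, with a log2 fold change of 0.06 (95% interval -0.19 to 0.31). With the *PD-L1* siRNAs, the log2 fold changes of *ULBP2*, *ULBP3* and *RAET1G* lay between -0.09 and 0.20, with FDRs between 0.190 and 0.606.

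**Figure D2:**
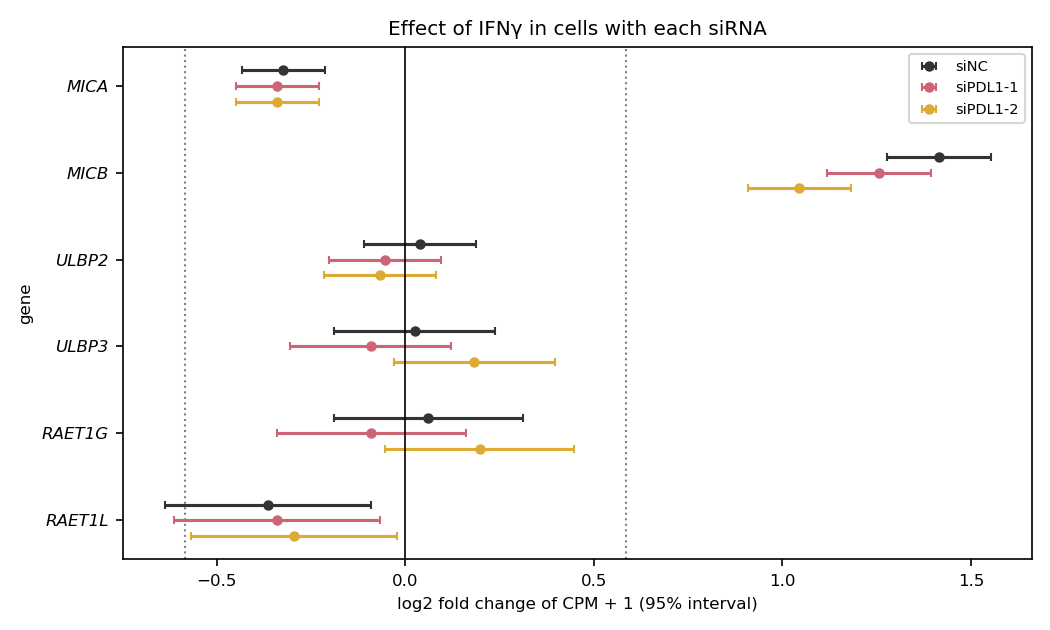
Log2 fold change of CPM + 1 after IFNγ (x axis) for 6 NKG2D ligand genes (y axis) in cells with siNC, siPDL1-1 or siPDL1-2, with 95% intervals from limma; the dotted lines mark a fold change of 1.5 in either direction. *MICB* lies beyond the line with all 3 siRNAs, *MICA* lies near -0.33, and the intervals of *ULBP2*, *ULBP3* and *RAET1G* contain 0.

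As drawn in the plot of IFNγ effects, the members did not move together. The median log2 fold change of the 6 members tested was 0.03 in siNC cells, where that of all genes was 0.00, and -0.09 and 0.06 with siPDL1-1 and siPDL1-2, where those of all genes were -0.02 and -0.01. *MICB* stood at the 98.7th percentile of all genes in siNC cells, *MICA* at the 9.09th and *RAET1L* at the 6.88th.

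The composition of the ligand mRNA differed between unstimulated and stimulated cells. In siNC cells the level of *MICA* per kb was 8.51 ± 0.110 times that of *MICB* without IFNγ and 2.43 ± 0.0884 times with it (SD, n = 2). The same ratio went from 5.43 ± 0.0235 to 1.74 ± 0.0511 with siPDL1-1 and from 6.01 ± 0.0963 to 2.23 ± 0.108 with siPDL1-2. *MICB* made up 21.4% ± 0.609 of the summed ligand level in stimulated siNC cells and *MICA* 51.8% ± 0.409. The summed level was 70.8 ± 0.501 CPM per kb before and 71.4 ± 1.58 after IFNγ in these cells, a difference within the spread between libraries. With siPDL1-1 it was 75.3 ± 0.0275 before and 76.7 ± 1.63 after, and with siPDL1-2 73.5 ± 0.995 and 72.1 ± 2.81. These sums rest on 1 transcript length for each gene, 1370 bases for *MICA* and 2416 for *MICB*. Without division by length, mean *MICB* in siNC cells went from 13.2 to 36.9 CPM and mean *MICA* from 63.7 to 50.7 CPM. In normalized CPM the gain of *MICB* was thus larger than the loss of *MICA*.

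With IFNγ, the order of the levels per kb changed at 1 place. In stimulated siNC cells *MICB* was at 15.2 and 15.3 CPM per kb and *ULBP2* at 13.9 and 15.05, so *MICB* had passed *ULBP2*. With siPDL1-1 the gap was wider, with 20.5 and 21.1 CPM per kb for *MICB* against 14.1 and 15.7 for *ULBP2*. With siPDL1-2 the libraries of *MICB* (14.98 and 16.8 CPM per kb) and *ULBP2* (15.7 and 16.3) overlapped. Per kb, *MICA* remained the most abundant ligand in every library, and *ULBP3*, *RAET1G* and *RAET1L* kept their places below. Without division by length, *MICB* (49.6 CPM) was above *MICA* (48.0 CPM) in stimulated siPDL1-1 replicate 2.

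The second comparison asks whether the ligands changed when *PD-L1* was targeted. Both siRNAs were compared with the same siNC libraries, so their values are given side by side and do not count as independent. In unstimulated cells *MICB* was at 13.4 and 13.0 CPM with siNC, 20.6 and 20.4 CPM with siPDL1-1 and 18.4 and 17.7 CPM with siPDL1-2. The 3 groups did not overlap, and both *PD-L1* siRNAs lay above the control.

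With siPDL1-1, *MICB* was called higher than with siNC in unstimulated cells, by 0.60 on the log2 scale (limma, FDR = 6.81e-06, standard error 0.064). It was the 1 member of 6 called, beside 4% of all genes tested and 2.55% for calls of higher expression. This value is close to the fold change threshold, and without siNC replicate 2 it was 0.58, below the threshold, so that no member was called. With siPDL1-2 the log2 fold change of *MICB* was 0.42 (FDR = 1.06e-04 from limma), below the fold change threshold. Past the FDR alone, 16.5% of all genes were higher there. None of the 6 members was called there by limma, edgeR or DESeq2, where 6.17% of all genes were by limma, and 3 had an unadjusted p below 0.05. Of all genes, 40.8% passed the stricter FDR < 0.05 there. Between siPDL1-1 and siPDL1-2, *MICB* differed by a log2 of 0.17 (FDR = 0.0465 from limma), which did not pass, and no member was called between them by any of the 3 tools, beside 4.35% of all genes, with 2 at an unadjusted p below 0.05. Here 36.7% of all genes passed FDR < 0.05.

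After IFNγ, *MICB* was at 37.0 and 36.7 CPM with siNC, 51.1 and 49.6 CPM with siPDL1-1 and 36.2 and 40.6 CPM with siPDL1-2. The siPDL1-1 libraries lay above the rest, and those of siPDL1-2 overlapped the control. The log2 fold change against siNC was 0.44 with siPDL1-1 (FDR = 8.46e-05 from limma, below the fold change threshold) and 0.06 with siPDL1-2 (95% interval -0.08 to 0.19, FDR = 0.563). Between the 2 siRNAs the difference was 0.38 (FDR = 6.61e-04), also below the fold change threshold. Higher values past the FDR alone were found for 11.6% of all genes with siPDL1-1 against siNC and for 5.94% with siPDL1-1 against siPDL1-2. No member was called in these comparisons, beside 5.47%, 3.13% and 2.23% of all genes, and edgeR and DESeq2 called none either. At an unadjusted p below 0.05 there were 1, 0 and 1 members, where 35.2%, 30.6% and 19.2% of all genes passed the stricter FDR < 0.05.

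The increase of *MICB* with IFNγ was therefore 0.37 smaller on the log2 scale with siPDL1-2 than with siNC (interaction -0.37, standard error 0.091, FDR = 0.00720 from limma), past the FDR threshold, as were 11.9% of all genes in that direction, and below that for the fold change. Over 18 alternatives this FDR ranged from 0.00466 to 0.0360, and it was above the threshold in 13 of them, among these edgeR, DESeq2, no filter, the replicate block (0.0107) and the fit without siPDL1-2 unstimulated replicate 1, which gave the highest. For siPDL1-1 the interaction was -0.16 (95% interval -0.35 to 0.04, FDR = 0.441). No member was called for either interaction, beside 7.62% of all genes with siPDL1-2 and 0.968% with siPDL1-1, and none by edgeR or DESeq2. At an unadjusted p below 0.05 there was 1 member with siPDL1-2 and 0 with siPDL1-1, where 29.6% and 3.18% of all genes passed the stricter FDR < 0.05.

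A list of 18 genes of the type I interferon response moved with siPDL1-1 as well. They summed to between 115 and 118 CPM in unstimulated siNC cells, 183 and 184 CPM with siPDL1-1 and 108 CPM with siPDL1-2. After IFNγ the sums were between 679 and 706, between 5912 and 5979, and between 738 and 762 CPM. With siPDL1-1, 10 of the 18 were called higher in unstimulated cells and 17 after IFNγ, whereas with siPDL1-2, where *MICB* was also higher in unstimulated cells, 0 were called there by limma, edgeR or DESeq2, with 6 at an unadjusted p below 0.05. In that comparison 40.8% of all genes passed the stricter FDR < 0.05. Against siNC, 4% of all genes were called with siPDL1-1 in unstimulated cells and 5.47% after IFNγ. The part of the type I interferon response in the *MICB* values was not tested.

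**Figure D3:**
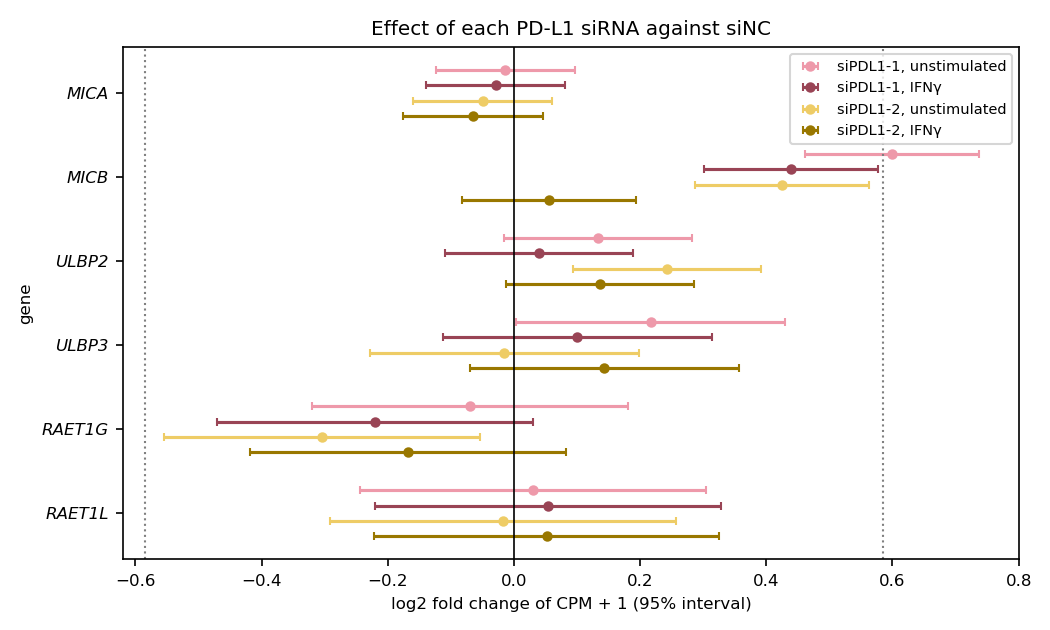
Log2 fold change of CPM + 1 for each *PD-L1* siRNA against siNC (x axis) for 6 NKG2D ligand genes (y axis), in unstimulated and IFNγ-stimulated cells, with 95% intervals from limma; the dotted lines mark a fold change of 1.5 in either direction. The interval of *MICB* lies above 0 in 3 of the 4 comparisons, its value is past the line in 1, and *MICA* lies between -0.06 and -0.01.

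The other members moved little with the siRNAs, as the plot of siRNA effects shows. *MICA* had log2 fold changes between -0.06 and -0.01 in the 4 comparisons with siNC, and the widest of their 95% intervals reached -0.18. *ULBP2* was highest with siPDL1-2 in unstimulated cells, at 22.6 and 22.2 CPM against 19.0 and 18.6 CPM with siNC. The groups did not overlap, and the log2 fold change of 0.24 had an FDR of 0.0119 from limma, just outside the threshold. In stimulated cells the same siRNA gave 20.9 and 21.8 CPM, a log2 fold change of 0.14 (FDR = 0.156).

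*ULBP3* was at 10.7 and 11.3 CPM with siPDL1-1 in unstimulated cells, above the 9.25 and 9.39 CPM of siNC, with a log2 fold change of 0.22 that did not pass (FDR = 0.122 from limma). *RAET1G* was lowest with siPDL1-2 in unstimulated cells, at 0.946 and 1.198 CPM, below the 1.62 and 1.49 CPM of siNC. Its log2 fold change of -0.30 had an FDR of 0.0506. *RAET1L* differed from siNC by between -0.02 and 0.05 on the log2 scale with either siRNA, with FDRs between 0.788 and 0.935. With siPDL1-1 and siPDL1-2 its mean CPM was 1.06 and 0.962 times that of siNC in unstimulated cells. In stimulated cells it was 1.25 and 1.22 times that of siNC, with between 12 and 20 reads a group. Adding 1 shrinks changes at this level, so these values cannot show that *RAET1L* was unchanged.

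The surroundings of the genes were examined next. Of 12 listed genes of the class I region that were tested, *MICA* and *MICB* included, 4 were called higher and none lower after IFNγ in siNC cells. Besides *MICB* these were *HLA-B* (log2 fold change 3.76) and *HLA-C* (1.86), which present peptides to T cells and are ligands of inhibitory NK receptors, and *HCP5* (2.46), a noncoding gene. The same 4 were called with siPDL1-1 and with siPDL1-2. Of all genes, 6.67% were called higher after IFNγ with siNC, 5.58% with siPDL1-1 and 3.62% with siPDL1-2. *HCP5* lies between *MICA* and *MICB*, and it was at 1.19 and 1.32 CPM before and 11.3 and 11.5 CPM after IFNγ in siNC cells. *MICA* thus lay, with a value below 0, between neighbors that rose. The median of the 12 was 0.06.

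**Figure D4:**
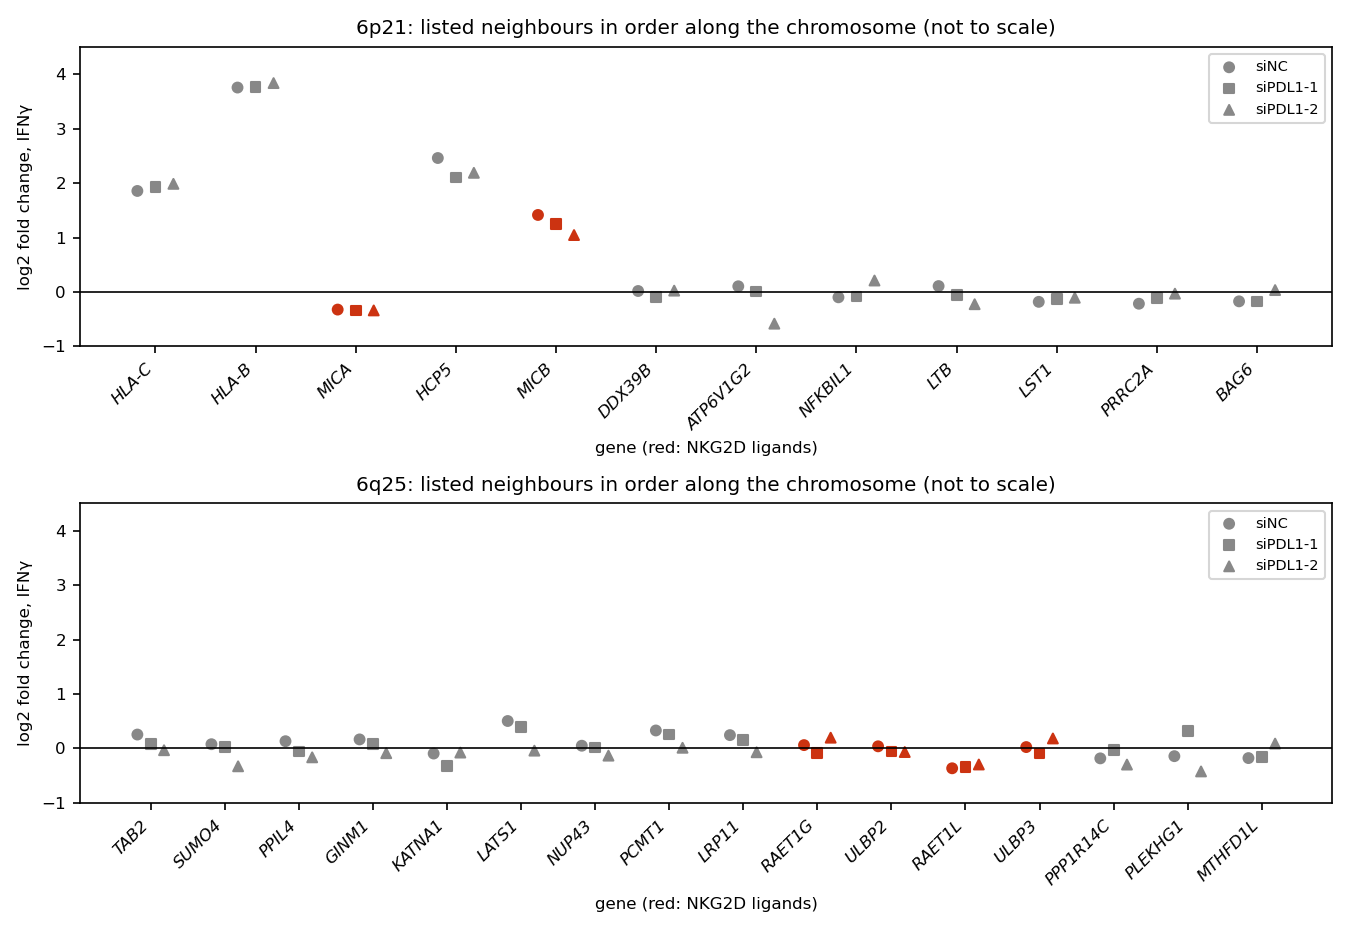
Log2 fold change of CPM + 1 after IFNγ (y axis) for the listed genes around *MICA* and *MICB* (6p21, top) and around the ULBP and RAET1 genes (6q25, bottom), in their order along the chromosome and not to scale (x axis), with 1 symbol for each siRNA and the NKG2D ligands in red. At 6p21 *HLA-C*, *HLA-B*, *HCP5* and *MICB* lie between 1.05 and 3.84 and *MICA* below 0, and at 6q25 the points lie between -0.42 (*PLEKHG1*) and 0.50 (*LATS1*).

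At 6q25, none of the 16 listed genes tested, *ULBP2*, *ULBP3*, *RAET1G* and *RAET1L* included, was called after IFNγ with any siRNA, and none was called between siRNAs, by limma, edgeR or DESeq2. After IFNγ, 9 in siNC cells, 7 with siPDL1-1 and 6 with siPDL1-2 had an unadjusted p below 0.05. Of all genes, 38.3%, 33.9% and 28.9% passed the stricter FDR < 0.05 in these comparisons. The next value is again for the 16 listed genes. Their median log2 fold change in siNC cells was 0.06. The plot of neighboring genes shows both clusters by position, with values at 6q25 between -0.42 for *PLEKHG1* with siPDL1-2 and 0.50 for *LATS1* in siNC cells.

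Some genes overlap the members, and the counting did not use the strand. *AL645933.3* lies on the same strand as *MICA* over 14614 bases and averaged 0.364 CPM against 56.2 CPM for *MICA*. *MICB-DT* overlaps the first 55 bases of *MICB* on the opposite strand and averaged 0.471 CPM against 29.6 CPM. *RAET1E-AS1_1* overlaps *RAET1G* over 2630 bases on the opposite strand and averaged 0.0194 CPM against 1.40 CPM.

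The ligands were then set beside the other signals that NK cells read. NK cells are known to weigh activating ligands against inhibitory ones, chiefly MHC class I molecules. Of 13 listed genes for inhibitory ligands, 11 were tested, and 8 were called higher and none lower after IFNγ in siNC cells, with a median log2 fold change of 1.86. The 4 largest were those of *CEACAM1* (4.30), an adhesion molecule, *HLA-B* (3.76), *HLA-E* (2.88), which binds the inhibitory receptor NKG2A, and *HLA-F* (2.73). With siPDL1-1 8 of 11 were called higher and none lower, and with siPDL1-2 8 were called higher and 1 lower, *NECTIN3* (log2 fold change -0.65, FDR = 2.42e-05 from limma), which encodes an adhesion molecule. Calls of higher expression were made for 6.67% of all genes with siNC, 5.58% with siPDL1-1 and 3.62% with siPDL1-2. *MICB*, at 1.41, was below *CD47* (1.70), which signals to phagocytes, in siNC cells.

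Of 12 listed genes for activating ligands of receptors other than NKG2D, 9 were tested, with a median of 0.05 in siNC cells. Beside 6.67% of all genes, 2 of the 9 were called higher in these cells. They were *CLEC2B* (2.65), the ligand of NKp80, and *ICAM1* (1.28), the ligand of the integrin LFA-1, which was at or below 2.08 CPM throughout. *PVR*, a ligand of DNAM-1, resembled *MICA*, with a log2 fold change of -0.31 (FDR = 1.56e-05 from limma) below the fold change threshold. *NCR3LG1*, a ligand of NKp30, was at -0.32 (FDR = 0.0104), which did not pass.

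**Figure D5:**
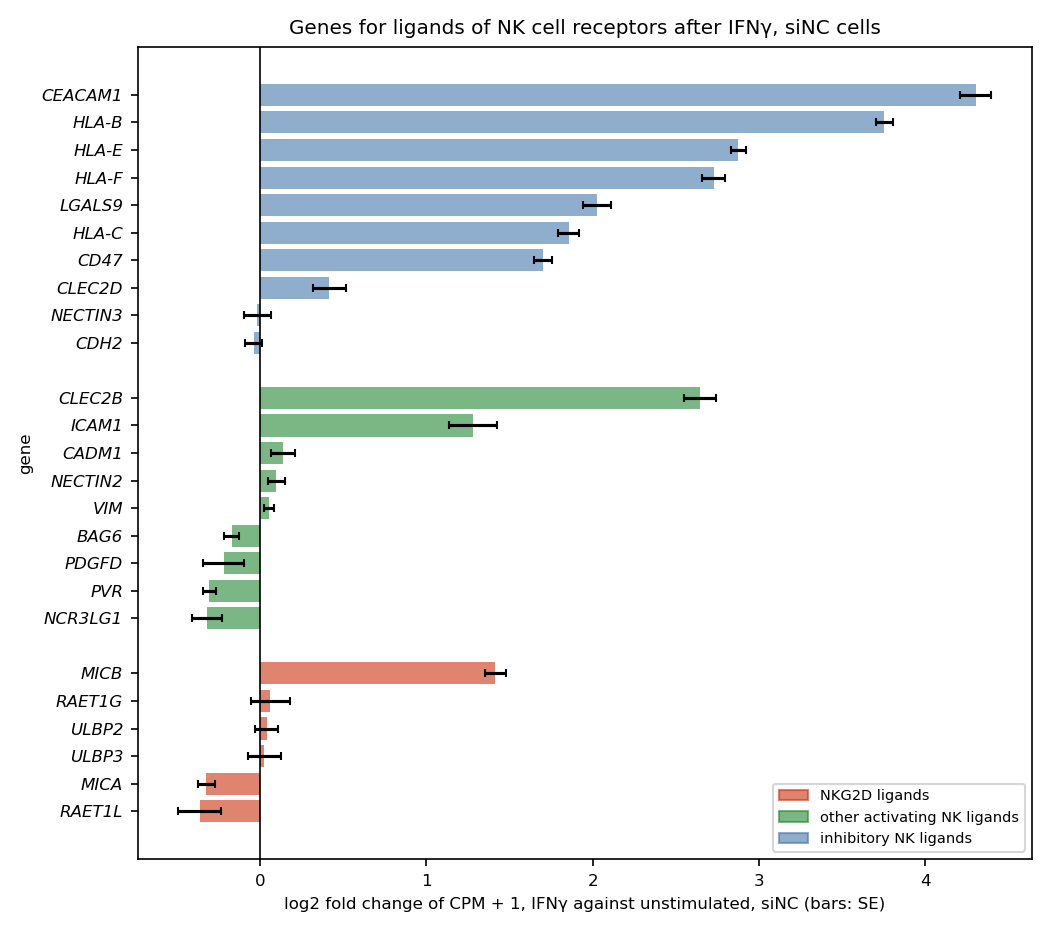
Log2 fold change of CPM + 1 after IFNγ in siNC cells (x axis, bars from 0, error bars: standard error from limma) for genes encoding inhibitory NK ligands (blue), other activating NK ligands (green) and NKG2D ligands (red) (y axis). Of the 10 inhibitory ligands drawn (of 11 tested), 7 were called higher, against 2 of 9 other activating ligands and 1 of 6 NKG2D ligands. Of all genes tested, 6.67% were called higher in these cells.

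The plot of NK ligands shows the lists side by side, and no test between them was made. Among the proteases and the thiol isomerase known to take part in ligand shedding, 6 of 7 genes were tested and none was called after IFNγ with any siRNA by limma, edgeR or DESeq2, although 6, 5 and 5 had an unadjusted p below 0.05 with siNC, siPDL1-1 and siPDL1-2. In these comparisons 38.3%, 33.9% and 28.9% of all genes passed the stricter FDR < 0.05. With siPDL1-1, *MMP14*, a membrane-bound matrix metalloproteinase, was called higher in unstimulated cells (log2 fold change 0.80) and after IFNγ (0.89), and so was *MMP2* (0.65 and 0.68), a gelatinase. *ADAM10*, a main sheddase of MICA and MICB, was called higher with siPDL1-2 in unstimulated cells (0.66), and *ADAM17* was not called.

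Of 19 genes reported to regulate transcription of the ligands, all were tested. After IFNγ in siNC cells 1 was called higher and 1 lower, the latter being *E2F1* (-0.71), a cell cycle factor, and with siPDL1-1 and siPDL1-2 1 was called higher and none lower. The median of the 19 was 0.05 in siNC cells. Calls in either direction after IFNγ were made for 8.12%, 6.87% and 5.27% of all genes with siNC, siPDL1-1 and siPDL1-2. *HSF1*, the heat shock factor, and *SP1*, which binds GC boxes, were not called in any comparison. With the siRNAs in unstimulated cells *E2F1* (-1.07 with siPDL1-1 and -0.82 with siPDL1-2) and *MYC* (-0.78 and -1.11), an oncogene that drives growth, were called lower. After IFNγ both were called lower with siPDL1-1, and *MYC* alone with siPDL1-2.

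Among 12 genes of the ATF4 stress response, 1 was called higher and 3 lower after IFNγ in siNC cells, with a median of -0.27. With siPDL1-1 1 was called higher and 0 lower, and with siPDL1-2 0 higher and 2 lower. Among 10 genes of the p53 response 2 were called higher and 1 lower in siNC cells, with a median of -0.07. With either *PD-L1* siRNA 1 was called higher and 0 lower. Of all genes, 8.12%, 6.87% and 5.27% were called after IFNγ with siNC, siPDL1-1 and siPDL1-2.

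Across the 12 libraries, the genes whose pattern was most like that of a member were ranked by Pearson's r of log2(CPM + 1) among genes averaging at least 5 CPM. For *MICB* they included *IRF9* (r = 0.991), a component of the interferon-activated factor ISGF3, and *HAPLN3* (0.988). For *MICA* they included *ASB1* (0.979) and *AKR1C1* (0.974), an aldo-keto reductase. The most like gene was *SLC16A9* for *ULBP2* (0.941), *ANKRD34A* for *ULBP3* (0.884), *SNRPD2* for *RAET1G* (0.946) and *SLC35E2B* for *RAET1L* (0.938). The 12 points are 6 groups of 2 libraries and share their groups, and each gene was taken as the highest of 11587 or 11588 correlations, so these values are descriptions.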

How the data were processed

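The 12 libraries were grouped by their labels. The methods of the paper name CLC Genomics Workbench 22.0.2, with which the authors aligned trimmed reads to GRCh38 (Ensembl annotation), keeping reads that fit up to 10 places and using neither strand alone. The deposited signal values are CPM normalized by the authors, 1 column per library. All of them (100%, tolerance 0.05) were multiples of 1 read, so whole reads were recovered. The extraction kit and sequencer named in the paper and in the labels differ.

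limma was run on log2(CPM + 1) with trend and robust estimates, with all libraries as 6 groups. filterByExpr (minimum count 10, minimum total 15) was applied to the whole reads. Calls needed FDR < 0.01 and fold change > 1.5, adjusted over all genes tested. Members and the 13 gene lists were chosen with earlier results of these data known. The rule named all members, at most 4 called genes by size per list and comparison, overlapping genes, the 3 genes most like a member, and *CD274*. Other genes of the lists were named after their values were seen. The results of 4 genes that the rule or the lists would name are not reported here. Alternatives were the quasi-likelihood test of edgeR and the Wald test of DESeq2 on whole reads, a pseudocount of 0.1, no filter, fits of 1 state or siRNA, no fold threshold, replicate number as a block and each library left out. Chosen after seeing the data were plain CPM, FDR < 0.05 and the averaged IFNγ test.

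Pairs of promoter windows were aligned globally (match 1, mismatch -1, gap opening -3, extension -1). The fit was tested on simulated data. Replicates were not copies, with a mean chi-square of 1.85 to 7.23 between them. Software comprised Python 3.11.15 (numpy 2.4.6, pandas 2.3.3, matplotlib 3.10.9) and R 4.3.3 with DESeq2 1.42.0, edgeR 4.0.16 and limma 3.58.1.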

Additional observations from a re-analysis of the deposited data

How the results depend on the processing

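Leaving out the fold change threshold at FDR < 0.01 raised the number of members called from 1 to 2 for IFNγ with siNC, siPDL1-1 and siPDL1-2, from 1 to 3 in the averaged test, and from 0 to 1 for siPDL1-2 against siNC in unstimulated cells, for siPDL1-1 against siNC and against siPDL1-2 after IFNγ, and for the interaction with siPDL1-2. Of all genes, 27.3%, 22.9% and 17.1% passed FDR < 0.01 alone for IFNγ and 34.0% in the averaged test, and 28.4%, 23.8%, 10.5% and 17.1% for the other 4 in that order. At FDR < 0.05 without it these were 3, 2 and 2 for IFNγ, 3 averaged, 2 for siPDL1-2 in unstimulated cells and 1 for the other 3, and 1 member was called between the siRNAs in unstimulated cells. The shares of all genes were then 38.3%, 33.9% and 28.9% for IFNγ, 44.9% averaged, 40.8% for siPDL1-2 in unstimulated cells, 35.2%, 19.2% and 29.6% for the other 3, and 36.7% between the siRNAs in unstimulated cells. In the averaged test the number was 2 with edgeR and with a pseudocount of 0.1, where 1375 and 1343 of all genes were called against 872. Without siPDL1-2 IFNγ replicate 2, the interaction with siPDL1-2 had 890 of all genes called against 1370. Without 1 library, the number called for siPDL1-1 in unstimulated cells ranged from 0 to 1, and *MICB* from 0.582 to 0.616; the 0 came without siNC replicate 2.

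Each change of sign was of a value that was not called. They were, with plain CPM, *ULBP2* -0.0453 and *ULBP3* -0.0551 after IFNγ in siNC cells, *ULBP3* -0.0284 in the averaged test and 0.00114 for siPDL1-2 in unstimulated cells, and, with DESeq2, *ULBP3* -0.00650 after IFNγ in siNC cells. The interaction of *MICA* was 0.0283 and 0.0210 with edgeR, 0.0283 and 0.0281 with DESeq2 and 0.000890 and 0.0106 with plain CPM for siPDL1-1 and siPDL1-2. Without 1 library, values ranged from -0.0138 to 0.0920 (*ULBP2*) and -0.0268 to 0.0772 (*ULBP3*) for IFNγ in siNC cells, -0.127 to 0.0188 and -0.205 to 0.0218 with siPDL1-1, and -0.0827 to 0.0528 for *ULBP3* with siPDL1-2 in unstimulated cells. In stimulated cells they ranged from -0.0786 to 0.0205 (*MICA*), -0.0330 to 0.113 (*ULBP2*) and -0.0129 to 0.214 (*ULBP3*) with siPDL1-1 and from -0.0260 to 0.137 for *MICB* with siPDL1-2. The interactions of *MICA* ranged from -0.0651 to 0.0340 and from -0.0491 to 0.0178. The causes were not tested.

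Whether replicate numbers pair the libraries is not known. Of 15 correlations of deviations between same-numbered libraries, 2 were above 0.1 (-0.132 to 0.193). These cannot decide the question, since there were no known pairs to compare them with. With replicate number as a block, 1 member was called for IFNγ in siNC cells, no count of members changed, and the interaction of *MICB* with siPDL1-2 had an FDR of 0.0107. With 2 libraries a group and few reads, depth limits *RAET1L*, *RAET1G* and *ULBP1*.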
